A study of Caenorhabditis elegans with 2 samples.

Results

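The ceh genes are the C. elegans genes named for their homeobox, the stretch of DNA that encodes the homeodomain. They were taken as the protein-coding genes of the Ensembl WBcel235 annotation whose symbol starts with ceh-, leaving out ceh-18, which is not counted here. The set held 62 of 19985 protein-coding genes. By homeobox class 20 belonged to ANTP, 8 to PRD, 6 to CUT, 3 to the sine oculis class, 3 to TALE, 1 to LIM and 1 to POU. The class list used here gave no class for the other 20, which are called unassigned. The ceh label rests on the gene symbols, and protein sequences were not used here to check it.

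Homeodomain proteins bind short AT-rich words in DNA and set the identity of cells during development. In the worm they are best known for specifying neuron types, pharyngeal muscle and positions along the body axis, and many of them act in few cells. Akirins are small nuclear proteins without a DNA-binding domain of their own that work with transcription factors and chromatin remodellers, and worm AKIR-1 is known from the epidermal response to infection. The question here is where AKIR-1 lay relative to the genes of this family.

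AKIR-1 was mapped by chromatin immunoprecipitation with sequencing in whole worms of strain IG1654, which carries the transgene akir-1p::AKIR-1::GFP inserted on chromosome II. Animals of mixed sex were synchronised as starved L1 larvae and taken as young adults at 70 hours, and the description in the labels gives an antibody against GFP, while an antibody tag names akir-1. Tagged and native AKIR-1 cannot be told apart in the lists. There was 1 group of 2 biological replicates, numbered 3 and 4, and both carried the transgene. It adds a tagged copy under the akir-1 promoter, and the labels do not say whether the native akir-1 is intact. Whole animals mix all tissues, so a site used in few cells and a site used weakly in many cannot be told apart. No second strain or condition was compared, so every comparison is between replicates or between genes.

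The lists cover ce11 and all coordinates count from 1. The pooled list and each replicate list held 30000 peaks, ranked here from 1 for the strongest, and the IDR-thresholded list held 400. Those 400 were the 400 strongest pooled peaks. The lists differ in signal scale, so signal values are compared within a list and ranks are given beside them. The lists reach far into weak peaks: 369 pooled peaks and 423 of replicate 4 had a q-value of at most 0.05, and 0 did in replicate 3. Read counts were not used here and depth is unknown. The promoter of a gene was taken as the 500 bp before and the first 100 bp after each of its annotated transcript starts, and a gene was counted when a peak's summit, its point of highest signal, lay there.

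By summits, AKIR-1 peaks lay in promoters of the ceh genes at a share whose interval spanned that of protein-coding genes at large. Nearly all of the pooled peaks there were outside the IDR-thresholded list. So were most such peaks over all protein-coding genes, where 190 of the 4602 genes with a pooled promoter summit had one in that list. In the pooled list 18 of 62 ceh genes had a promoter summit, 29.0% (95% Wilson interval 19.2% to 41.3%), beside 23.0% of all protein-coding genes. Replicate 3 gave 13 genes, 21.0% (12.7% to 32.6%), beside 22.8%. Replicate 4 gave 18 genes, 29.0% (19.2% to 41.3%), beside 23.7%. The intervals cover counting error over genes only, and each spanned the background share. When a pooled peak needed only to overlap the promoter by 1 bp, 28 ceh genes had one, 45.2% (33.4% to 57.5%) beside 33.2%, and this interval lay just above the background share. Only 5 ceh genes had a promoter summit in both replicates, 8.06% (3.49% to 17.5%) beside 11.6%, and the same 5 had one in both replicates and the pooled list, beside 10.7%. The IDR-thresholded list held 1, the CUT-class gene ceh-38, which is 1.61% (0.285% to 8.59%) beside 0.951%. No list placed a summit in the promoters of 33 ceh genes, 53.2% (41.0% to 65.1%) beside 63.4%.

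**Figure D1:**
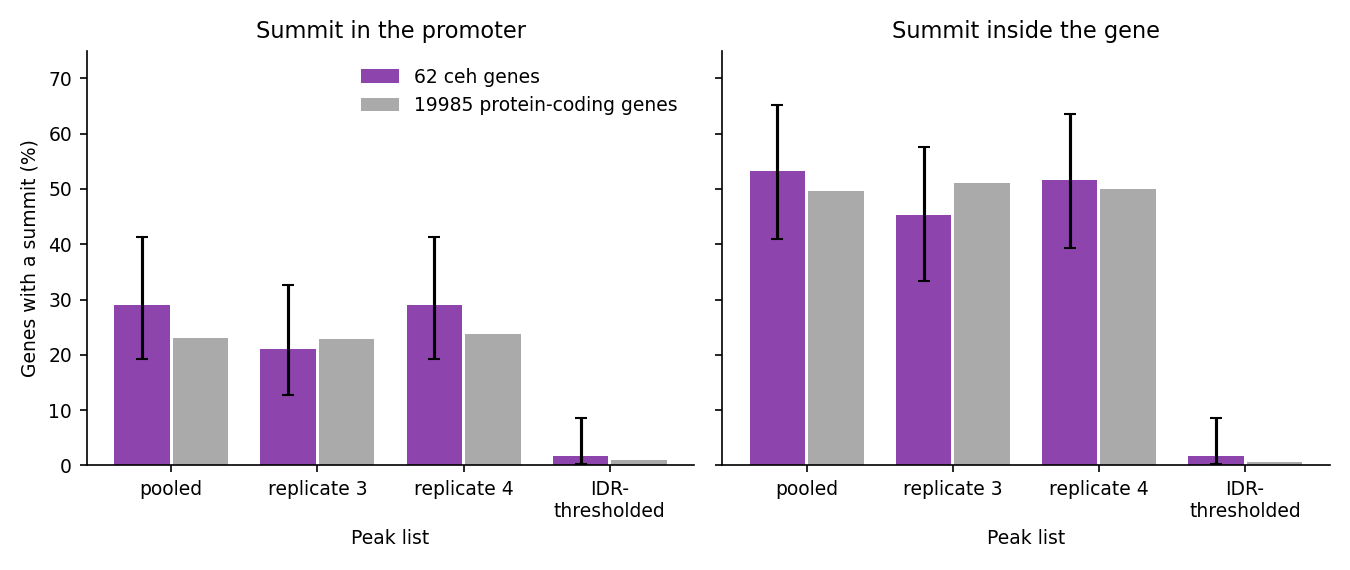
Share of genes (%, bars from 0) with a peak summit in the promoter (left) or inside the gene (right) in each peak list, for 62 ceh genes and 19985 protein-coding genes. Error bars are 95% Wilson intervals of the ceh shares and cover counting error over genes only; every interval spans the share of all protein-coding genes, such as 23.0% for pooled promoter summits.

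A choice of regions under peaks at ceh genes is shown first, on the strand of the gene, from the RefSeq assembly that matches ce11. It does not follow the full order of signal: regions with higher values than some of those shown, such as at ceh-8, ceh-5 and ceh-1, are not printed. For ceh-38, the gene of the strongest promoter peak, the run is the part of the peak that precedes the first transcript start, chrII:6951427-6951525, which does not reach the summit at 6951617. For the others it is 75 bp on either side of the pooled summit: ceh-14 at chrX:7533078-7533228, ceh-79 at chrV:13301493-13301643, ceh-31 at chrX:3070532-3070682, and the strongest intronic summit, in ceh-22, at chrV:10672853-10673003. Of these, ceh-38, ceh-14 and ceh-31 are shown for a promoter summit in both replicates, and ceh-79 as the strongest unassigned gene. At ceh-31 the replicate 3 summit lay 40 bp inside the start, outside the printed run. The ceh-22 peak is shown because it outranks the pooled promoter peak of that gene, which also lay in an intron, at an internal start. Capitals mark matches, on either strand, to 7 words: the octamer ATGCAAAT of POU factors, ATCGAT and its relative ATCAAT of CUT proteins, the homeodomain core TAATTA, the Pbx-Hox word TGATNNAT, the repeat GAGAGA, and the TATA box word TATAAA.
ceh-38: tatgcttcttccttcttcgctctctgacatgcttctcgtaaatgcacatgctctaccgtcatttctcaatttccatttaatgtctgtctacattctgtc
ceh-14: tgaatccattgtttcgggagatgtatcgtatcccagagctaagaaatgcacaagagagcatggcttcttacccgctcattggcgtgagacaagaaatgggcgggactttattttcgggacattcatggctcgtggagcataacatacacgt
ceh-79: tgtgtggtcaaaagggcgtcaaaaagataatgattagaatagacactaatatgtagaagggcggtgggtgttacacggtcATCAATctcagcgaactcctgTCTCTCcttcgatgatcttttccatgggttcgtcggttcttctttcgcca
ceh-31: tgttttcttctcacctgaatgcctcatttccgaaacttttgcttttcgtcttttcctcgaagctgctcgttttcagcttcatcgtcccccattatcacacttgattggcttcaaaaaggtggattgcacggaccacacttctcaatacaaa
ceh-22: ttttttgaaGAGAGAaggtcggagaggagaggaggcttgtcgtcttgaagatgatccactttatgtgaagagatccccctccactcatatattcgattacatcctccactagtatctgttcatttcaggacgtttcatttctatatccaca
The runs of ceh-38, ceh-14 and ceh-31 hold no match to any of these words. The ceh-79 run holds ATCAAT and the reverse complement of GAGAGA, and the ceh-22 run holds GAGAGA within a longer purine-rich stretch.

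The CUT class encodes homeodomain proteins with an additional CUT domain. The worm ONECUT genes ceh-38 and ceh-48 are among those known to drive genes shared by all neurons. The gene ceh-38 lies on chromosome II from 6951526 to 6955409 on the plus strand and has 11 annotated transcript starts, the most of any ceh gene. Its pooled peak ran from 6951427 to 6951806 with a signal value of 114.2, rank 337 of 30000, and a q-value of 0.0461. The summit, at 6951617, lay 2 bp upstream of the nearest start, and the promoters of all 11 starts held it. In replicate 4 the overlapping peak had a signal value of 74.0, rank 164 and a q-value of 0.018, and in replicate 3 it had 37.5, rank 3767 and a q-value of 0.352. Both replicates therefore placed a peak there, high in the list of replicate 4 and well down that of replicate 3. The strongest 400 peaks of replicate 4 held this promoter, and those of replicate 3 did not.

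The ceh-38 peak cannot be assigned to that gene alone. The gene malt-1, which encodes the worm MALT1 paracaspase, starts 226 bp from the first ceh-38 start and runs the other way, and the summit lay 317 bp upstream of malt-1. Both promoters held the summit, and it lay in an untranslated exon part of ceh-38. Further into ceh-38 the pooled list had summits of rank 25446 and 9456, both in coding exons, and each overlapped a peak of replicate 3 and none of replicate 4. Past the 3' end a pooled peak of rank 1250 lay in the neighbouring tra-2, a sex determination gene, with rank 381 in replicate 3 and 14015 in replicate 4. At that neighbour replicate 3 ranked higher, and at the ceh-38 promoter replicate 4 did.

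**Figure D2:**
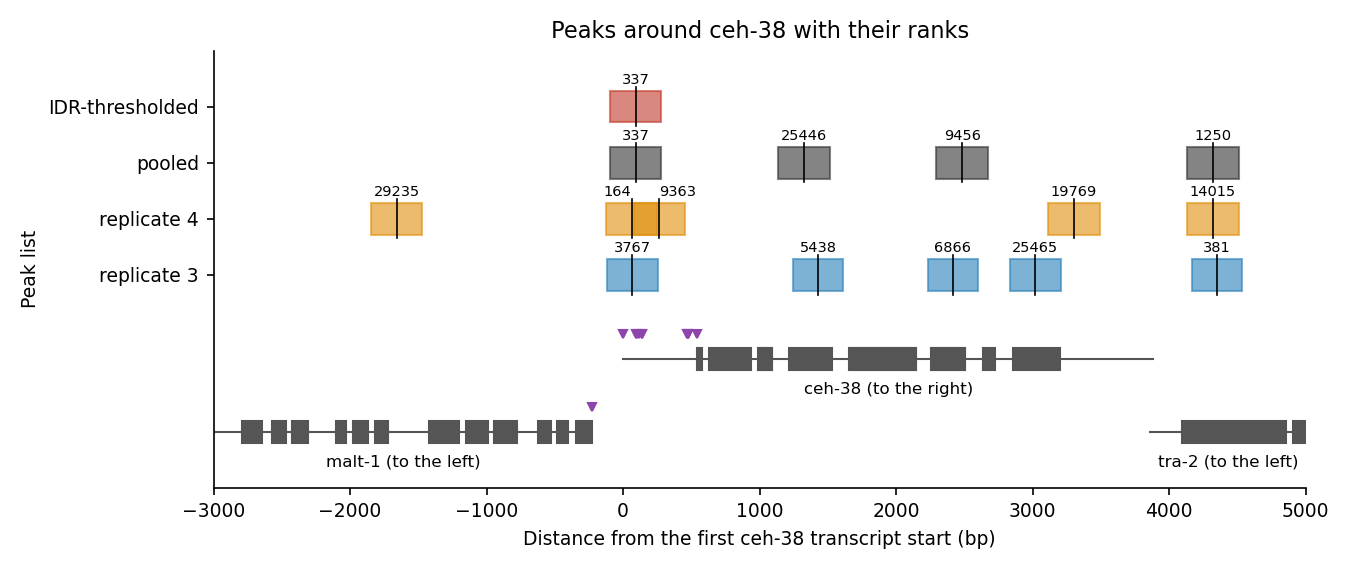
Peaks of each list (boxes, with the summit as a line and the rank in the list as a number) around ceh-38, plotted by distance from its first transcript start in bp; dark boxes below are coding exons, thin lines the rest of each gene and triangles transcript starts. The summit of rank 337 lies among the ceh-38 starts and beside the start of malt-1, with rank 164 in replicate 4 and 3767 in replicate 3.

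The remaining CUT genes had no pooled promoter summit. ceh-48 had a promoter summit in replicate 3 alone, with a signal value of 32.1 and rank 7218, and that peak overlapped a pooled peak of rank 13603 inside its coding sequence. ceh-49 had one in replicate 4 alone, with 19.7 and rank 26742, near the end of that list. The other 3 genes, ceh-41, ceh-21 and ceh-39, stand next to each other on X with gaps of 103 and 1137 bp. ceh-39 is known as an X-signal element, one of the genes by which the worm counts its X chromosomes. None of the 3 had a promoter summit in any list, as was so for 63.4% of all protein-coding genes. ceh-21 had 3 pooled summits in coding exons, the strongest of 55.4 at rank 6979, ceh-39 had 1 in an intron at rank 17119, and ceh-41 had no summit in its promoter or body in any list.

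Apart from ceh-38, the genes seen in both replicates were ceh-14, ceh-5, ceh-8 and ceh-31. ceh-14, a LIM-homeodomain gene of the Lhx3/4 family that acts in several sensory and interneurons, had a pooled signal value of 63.6 at rank 3873, with a summit 421 bp upstream of its start. Its replicate signal values were 36.2 at rank 3662 in replicate 4 and 24.7 at rank 17322 in replicate 3. ceh-5, an ANTP-class gene, had a pooled signal value of 60.2 at rank 4916, 50 bp inside its start and in coding sequence, with rank 4853 in replicate 4 and 16600 in replicate 3. The replicate 4 summit lay at the pooled position, and the replicate 3 summit lay upstream of the start, outside the gene. In both genes replicate 4 was the higher, as at ceh-38.

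ceh-8, a PRD-class gene of the Rx family, had a pooled signal value of 42.7 at rank 16990, with rank 10653 in replicate 4 and 28530 in replicate 3. Its summit lay in an intron at an internal start, 4006 bp into the gene. ceh-31 is a BarH-type gene next to ceh-30, a BarH-type gene known for the survival of male-specific neurons. ceh-31 had a pooled signal value of 44.3 at rank 15276 and was the exception in order, with 30.6 at rank 8713 in replicate 3 and 23.2 at rank 18137 in replicate 4. Its replicate 3 summit lay 40 bp inside the start and its pooled summit 185 bp upstream. Within the stronger 15000 peaks of each replicate, ceh-38 was the 1 gene of these 5 that stayed in both.

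The other genes with a pooled promoter summit had a promoter summit in 1 replicate or in neither. By promoter summits, 7 genes were found in the pooled list and replicate 4, namely ceh-16, ceh-22, ceh-23, ceh-30, ceh-37, ceh-7 and ceh-79, and 3 in the pooled list and replicate 3, namely ceh-17, ceh-87 and ceh-90. A further 3 were found in the pooled list alone, ceh-1, ceh-24 and ceh-34. Replicate 3 alone placed a summit at ceh-19, ceh-48, ceh-75, ceh-76 and ceh-82, and replicate 4 alone at ceh-33, ceh-43, ceh-49, ceh-57, ceh-83 and ceh-86. The same split was not counted over all protein-coding genes, so these counts have no background share. Counted by overlap of at least 1 bp instead, 6 of the 18 strongest pooled promoter peaks met a peak in both replicates, 33.3% beside 51.0% over all protein-coding genes. Replicate 3 alone was met by 5, 27.8% beside 22.1%, and replicate 4 alone by 5, 27.8% beside 22.1%. Neither was met by 2, 11.1% beside 4.82%. By overlap the ceh-16 peak met both replicates, and the peaks of ceh-1 and ceh-24 met replicate 3. The ceh-22 peak met neither, and the replicate 4 summit of that gene lay at another start.

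**Figure D3:**
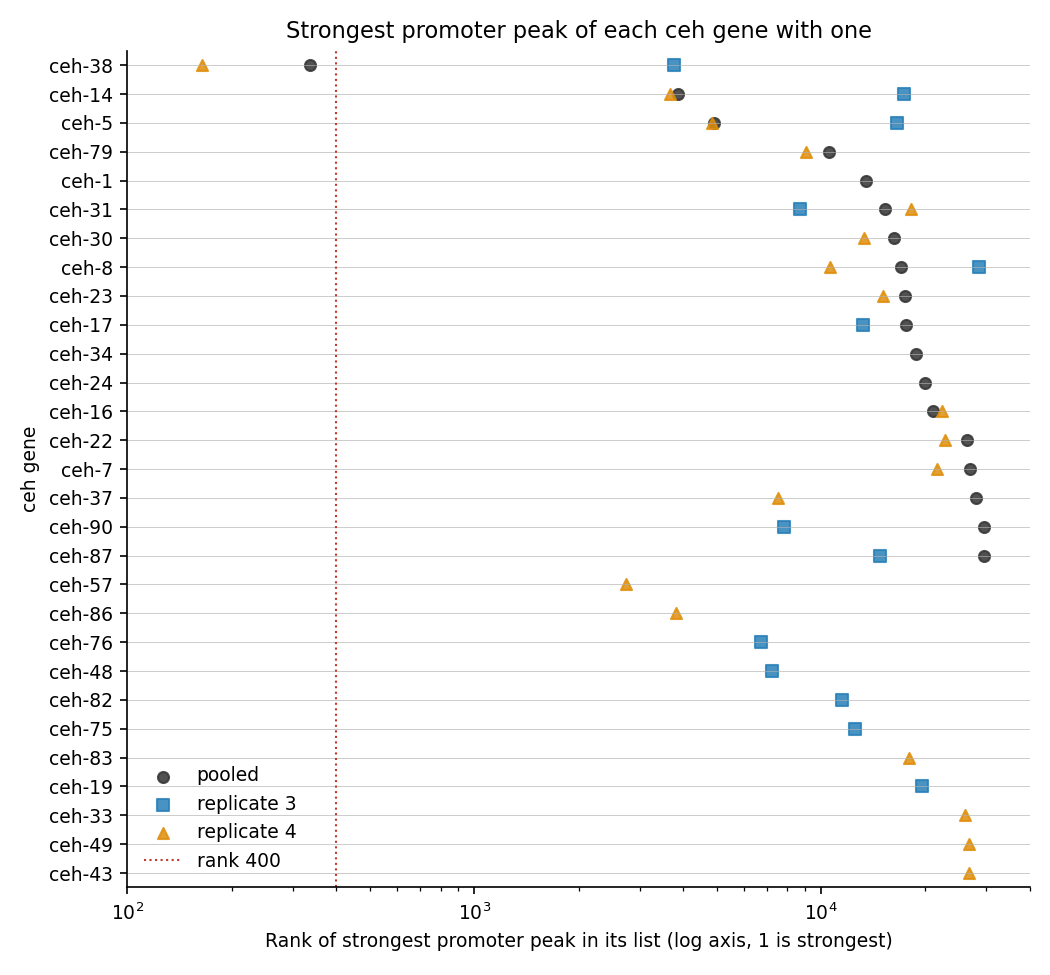
Rank (log axis, 1 is the strongest) of the strongest promoter peak of each ceh gene that has one, in the pooled list (circles), replicate 3 (squares) and replicate 4 (triangles); the dotted line marks rank 400, the length of the IDR-thresholded list. ceh-38 alone lies left of the line, at 337 pooled and 164 in replicate 4, while its replicate 3 peak is at 3767.

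By class the counts were small, and no difference between classes was tested. Replicate 3 placed a promoter summit at 3 of the 20 ANTP-class genes and replicate 4 at 8, beside 22.8% and 23.7% of all protein-coding genes. In the pooled list ANTP-class genes gave 9 of the 18 promoter summits, from 20 genes of that class, beside 23.0% of all protein-coding genes. Besides ceh-5, ceh-31 and ceh-7 these were ceh-1, ceh-30, ceh-23, ceh-24, ceh-16 and ceh-22. ceh-1 had a pooled signal value of 46.1 at rank 13446, 457 bp upstream. ceh-30 had 43.4 at rank 16237, 140 bp upstream, and 25.8 at rank 13339 in replicate 4. ceh-23, which acts in the AIY interneurons and other neurons, had 42.3 at rank 17529, 463 bp upstream, and 24.8 at rank 15055 in replicate 4. ceh-24, an NK-2 type gene, had 40.2 at rank 19933, 77 bp inside its start. ceh-16, the worm engrailed gene, had 39.3 at rank 21070, 484 bp upstream, and was the outermost upstream summit still inside the promoter. ceh-22, an Nkx2-5-like gene of pharyngeal muscle, had 35.8 at rank 26309, in an intron 146 bp upstream of an internal start. Most of them ranked below the stronger 15000 peaks, which held the strongest promoter peak of 2598 of the 4602 protein-coding genes with one. The Hox gene ceh-13 and the Distal-less gene ceh-43 had no pooled promoter summit, and ceh-43 had one in replicate 4 at rank 26779.

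In the PRD class 3 of 8 genes had a pooled promoter summit, beside 23.0% of all protein-coding genes. Besides ceh-8 these were ceh-17, a Phox2-like gene needed for the long axons of a few neurons, with 42.2 at rank 17537, 24 bp upstream, and 27.1 at rank 13192 in replicate 3, and ceh-37, an Otx-type gene of olfactory neurons, with 34.7 at rank 28037. The ceh-37 summit lay in an intron at an internal start, 8002 bp into the gene. The related Otx-type gene ceh-36 had its nearest promoter-side summit 593 bp upstream, outside the window. In the sine oculis class ceh-34, a regulator of pharyngeal neurons, had a pooled signal value of 41.1 at rank 18847, 25 bp upstream, and no overlapping peak in either replicate. Its neighbour ceh-33 had a pooled summit 109 bp inside its start, just outside the window, and a promoter summit in replicate 4 at rank 26103.

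The POU gene ceh-6, which acts in the excretory cell and other cells, had no promoter summit in any list and 3 pooled summits inside the gene. The peak of each overlapped peaks of both replicates. Those of ranks 7132 and 13053 overlapped each other and met the same replicate 3 peak, of rank 8563. The TALE genes ceh-20, ceh-40 and ceh-60 encode Pbx-type partners of Hox proteins. None had a promoter summit in any list, as was so for 63.4% of all protein-coding genes. Inside them lay 6 pooled summits, 5 in ceh-60 and 1 in ceh-20.

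Among the 20 unassigned genes 3 had a pooled promoter summit, beside 23.0% of all protein-coding genes. ceh-79 had a pooled signal value of 49.6 at rank 10574, 265 bp upstream, with 29.0 at rank 9026 in replicate 4. ceh-90 and ceh-87 lay near the end of the pooled list, at ranks 29606 and 29612. The highest-ranking promoter peaks that the pooled list lacked were also at unassigned genes: ceh-57 had 38.6 at rank 2743 and ceh-86 had 35.8 at rank 3829, both in replicate 4 alone. For ceh-57 the pooled peak under it had rank 8653 and its summit 530 bp upstream, inside the neighbouring ceh-58, so the window's edge decided that count. The ceh-86 promoter had no such pooled peak, and the nearest pooled summit to its starts was 6509 bp away.

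Counted down the pooled list, the ceh share of promoter summits lay above that of protein-coding genes at rank 400 through ceh-38 alone, below it at ranks 1000 to 15000, and above it from rank 20000 on. The strongest promoter peak of the 18 genes had a median rank of 17533, beside 12806 over the 4602 protein-coding genes with one. A promoter summit among the strongest 3000 peaks was found for 1 ceh gene, 1.61% beside 3.96%, and among the strongest 15000 for 5, 8.06% (3.49% to 17.5%) beside 13.0%. At rank 20000 the ceh share had passed the other, 19.4% beside 16.5%. Of the 18 peaks 13 ranked past 15000, and 5 ranked within it, beside 2598 of the 4602 over all protein-coding genes. In replicate 4 the ceh median was likewise the weaker, 14197 beside 13087, and in replicate 3 it was the stronger, 12531 beside 13264. Apart from ceh-38, the q-values of the 17 other peaks ran from 0.489 to 0.800. Over the whole pooled list 1.23% of peaks had a q-value of at most 0.05.

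**Figure D4:**
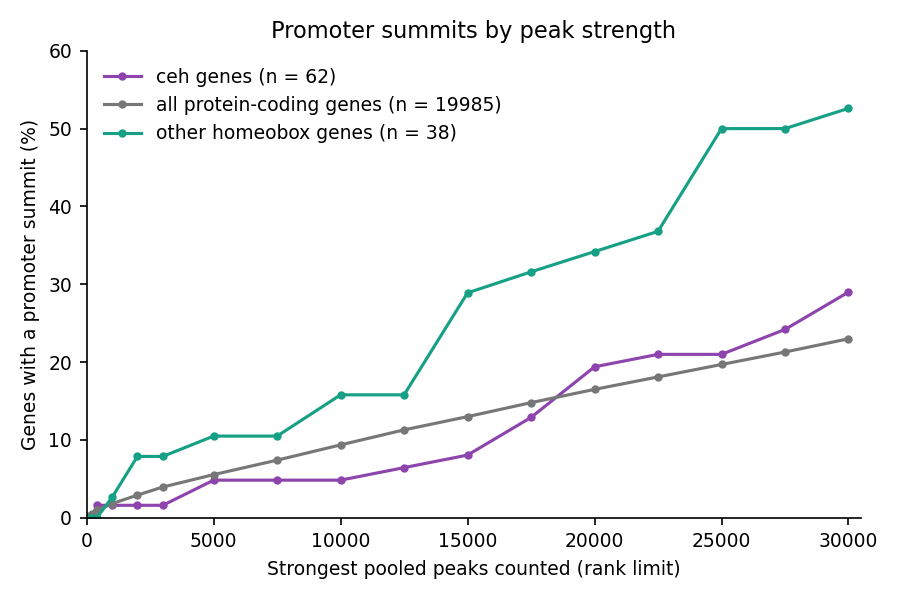
Share of genes (%) with a promoter summit among the strongest pooled peaks, by the rank down to which peaks are counted, for 62 ceh genes, 19985 protein-coding genes and 38 other homeobox genes. Past rank 400 the ceh line lies under that of all protein-coding genes, as at rank 15000 (8.06% and 13.0%), and over it from rank 20000 (19.4% and 16.5%).

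Several pooled summits lay close to the window's edges. Just inside was ceh-16 at 484 bp upstream. Just outside downstream were ceh-53 at 101, ceh-19 at 102 and ceh-33 at 109 bp, and just outside upstream were ceh-57 at 530, ceh-28 at 567 and ceh-36 at 593 bp. With a window of 1000 bp upstream to 200 bp downstream a pooled summit was found for 29 ceh genes, 46.8% (34.9% to 59.0%) beside 37.4% of all protein-coding genes. The summits of the 18 genes had a median position of 143 bp upstream of the nearest start, beside 182 bp over all protein-coding genes, and 6 of them lay within 100 bp of a start, 33.3% beside 35.5%. A summit was shared with the promoter of another gene of any kind at 2 of the 18, ceh-38 and ceh-37, 11.1% beside 24.1%.

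Inside genes the picture was again close to that of protein-coding genes at large. In the pooled list 33 ceh genes held a summit between gene start and end, 53.2% (41.0% to 65.1%) beside 49.7%. Replicate 3 gave 28, 45.2% (33.4% to 57.5%) beside 51.0%, and replicate 4 gave 32, 51.6% (39.4% to 63.6%) beside 50.0%. The IDR-thresholded list gave 1, again ceh-38, 1.61% beside 0.691%. The 60 pooled summits amounted to 0.293 per kb of gene, beside 0.308. By position 32 lay in introns, 19 in coding exons and 9 in other exons. Introns held 53.3% of these summits and 59.6% of the length of the ceh genes, and coding exons held 31.7% of summits and 29.7% of length. Over all protein-coding genes introns held 44.8% of summits and 53.7% of length, and coding exons 45.9% and 38.3%.

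The strongest peak inside a ceh gene other than ceh-38 was at ceh-8, at chromosome I from 8245421 to 8245800, near the 3' end of the gene. Its pooled signal value was 83.8 at rank 1122, with 49.4 at rank 962 in replicate 3 and 42.6 at rank 1685 in replicate 4. It also lay in the promoter of the non-coding RNA gene ZK265.11. In ceh-22 an intronic peak from 10672738 to 10673117 on chromosome V had 69.7 at rank 2575, with 32.5 at rank 6889 in replicate 3 and 35.9 at rank 3775 in replicate 4. It lay in the promoter of the non-coding RNA gene F29F11.19, and it stood far above the ceh-22 promoter peak of rank 26309. That promoter peak also lay in an intron, at an internal start 2168 bp or more into the gene, and overlapped no peak of either replicate. Neither had a q-value of at most 0.05: it was 0.196 for ceh-8 and 0.399 for ceh-22.

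Below these came ceh-5 and then introns of ceh-93 at 58.7 and rank 5486, ceh-36 at 57.8 and rank 5839, and ceh-79 at 56.3 and rank 6497. Each of these overlapped a peak of both replicates. The most summits were 5 each in ceh-14 and ceh-60 and 4 in ceh-37, and 9 ceh genes held 3 or more. Genes with 3 or more were not counted over all protein-coding genes. Some of these pooled peaks overlapped each other, as in ceh-14 and ceh-60, so not all summits are separate sites. Of the 60 peaks 23 overlapped both replicates, 38.3% beside 46.0%, while 19 overlapped replicate 3 alone, 15 replicate 4 alone and 3 neither.

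**Figure D5:**
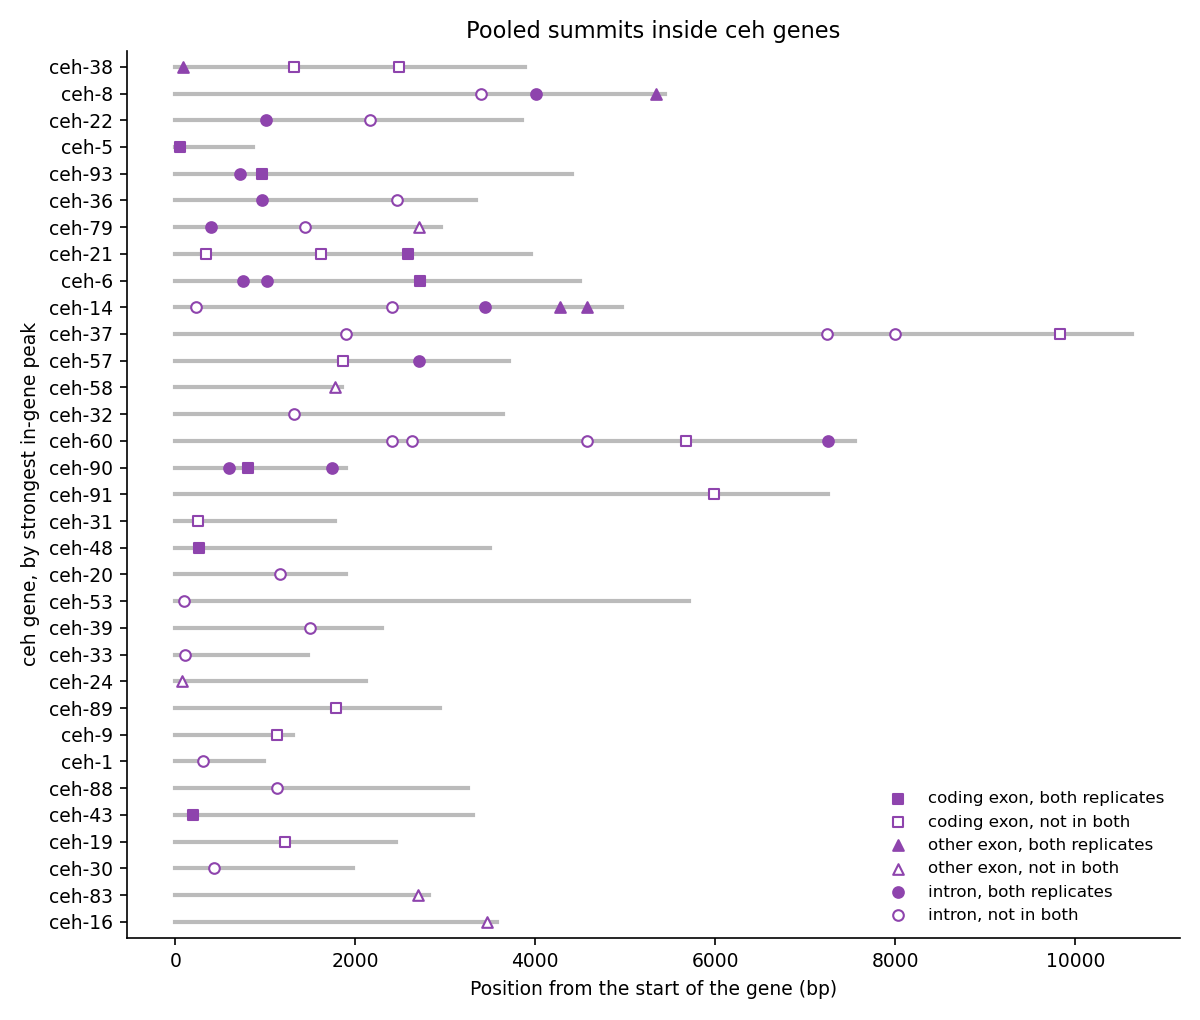
Positions (bp from the start of the gene, in the direction of transcription) of the 60 pooled summits inside 33 ceh genes, ordered from the gene with the strongest such peak; grey lines are the genes to scale, squares coding exons, triangles other exons and circles introns, and filled symbols overlap a peak of both replicates. The genes ceh-14 and ceh-60 hold 5 summits each, and 23 of the 60 symbols are filled.

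In the pooled list 13 ceh genes had a summit in the promoter and inside the gene, 21.0% (12.7% to 32.6%) beside 15.8%. At 2 of them, ceh-5 and ceh-24, this was 1 and the same summit, and 11 had a further summit inside. Neither was found in 24, 38.7% (27.6% to 51.2%) beside 43.1%, and 14 had no summit in promoter or body in any list, 22.6% (14.0% to 34.4%) beside 26.8%. Those 14 came from several classes: ceh-10, ceh-45 and ceh-54 of PRD, ceh-12, ceh-28, ceh-51 and ceh-63 of ANTP, ceh-40 of TALE, ceh-41 of CUT, and ceh-74, ceh-81, ceh-84, ceh-92 and ceh-100 of the unassigned genes. ceh-10, a Vsx-type gene of the AIY interneurons, had its nearest pooled summit 3142 bp from its start. ceh-100, at 21503 bp the longest of these, had none over its whole length, and the nearest pooled summit to ceh-51 was 39013 bp away. Over all 62 genes the median distance from a start to the nearest pooled summit was 740 bp, beside 949 bp. A missing summit says that none of the 30000 peaks of a list lay there, and not that AKIR-1 is absent.

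The ceh genes were longer than protein-coding genes at large and more often on X. Their median length was 2644.5 bp beside 2026 bp, and their mean number of starts was 1.50 beside 1.49. Of those with 1 start, 12 of 48 had a pooled promoter summit, 25.0% beside 18.9%, and of those with more, 6 of 14, 42.9% beside 34.0%. X carries 17 of the 62 ceh genes, 27.4% beside 13.7% of all protein-coding genes. On X 6 had a pooled promoter summit, 35.3% beside 33.8% of X genes, and off X it was 12 of 45, 26.7% beside 21.3%. More starts and a place on X go with higher shares among all protein-coding genes too, and their part in the ceh shares was not tested.

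Base composition and words at the summits were also near those elsewhere. Within 75 bp of the 18 promoter summits the median GC content was 39.1%, beside 36.4% at the strongest promoter summits of all protein-coding genes, and the ceh-38 window had 51.0%. The octamer ATGCAAAT was in 0 of the 18 windows, beside 1.38% at protein-coding promoter summits and 1.55% of all pooled windows. The CUT word ATCGAT was in 1, that of ceh-38 itself, 5.56% beside 4.51% and 3.89% in the same order. The Pbx-Hox word TGATNNAT was in 4, 22.2% beside 12.4% and 13.2%, and ATCAAT in 3, 16.7% beside 16.1% and 16.2%. TAATTA was in 1, 5.56% beside 7.57% and 6.56%. GAGAGA was in 2, 11.1% beside 14.1% and 10.6%, and TATAAA in 1, 5.56% beside 16.9% and 14.7%. The reverse complement of ATCAAT can overlap TGATNNAT, so those matches are not separate. Matches describe letters on either strand, and nothing about binding follows from them.

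Across the whole promoters of all 62 genes, taken from the outermost start, ATGCAAAT was in 4.84% beside 5.46% of all protein-coding promoters. ATCGAT was in 12.9% beside 21.1%, ATCAAT in 43.5% beside 51.0% and TAATTA in 25.8% beside 28.7%. TGATNNAT was in 48.4% beside 40.4%, GAGAGA in 43.5% beside 33.9% and TATAAA in 43.5% beside 58.1%. The ceh promoters thus held ATCGAT and TATAAA less often and TGATNNAT and GAGAGA more often in these counts, with no test of the differences.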

How the data were processed

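AKIR-1::GFP chromatin immunoprecipitation was measured in 2 biological replicates, 3 and 4, of young adult worms. Per the labels, chromatin was sonicated to fragments of 200 to 800 and assigned to ce11. The authors deposited 4 peak lists: 1 per replicate, called per sample, 1 on pooled replicates, and 1 thresholded by IDR from these. For caller, thresholds and aligner the sources used here give no name. The signal value per peak is as deposited by the authors, on an unstated scale. The q-values were converted here from the deposited −log10 values, and were only described.

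Peaks were ranked by signal within a list. Genes and starts came from Ensembl release 115, and sequence from RefSeq's assembly of the same chromosome lengths. No column of the shared lists lacked a group. No read counts were used and depth per sample is unknown, so Wilson intervals at 95% cover counting error over genes only. No tests were run over the list. Words were searched within 75 bp of summits and in promoters of the outermost start. Bases in untranslated exon parts and all of chromosome I are not printed. Summit searches equalled bedtools in 4 of 4 lists and were tested on simulated data. Alternatives were other promoter windows, overlap in place of summits, stronger peaks only, coding starts only, and each replicate alone.

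The members, gene lists, words and rules were chosen with earlier results of these data known. Genes were named if IDR-thresholded, among the 12 strongest at promoters or the 8 strongest inside genes, seen in both replicates, of the CUT class, or as examples per class; others named were picked after their values were seen. One listed CUT gene, ceh-44, had no match in the annotation and was not analysed here. Scripts used pandas 2.3.3, numpy 2.4.6 and matplotlib 3.10.9 under Python 3.11.15, and scipy 1.17.1 for intervals.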

Additional observations from a re-analysis of the deposited data

How the results depend on the processing

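Of 31 alternatives over 5 results, 20 left the value within 1.5 times, or the median rank within the spread of the replicates. Among the 20 was 1 that could not differ: the 400 strongest pooled peaks are the same peaks as the IDR-thresholded list. The count of 18 ceh genes with a pooled promoter summit became 29 (46.8%, beside 37.4% of all protein-coding genes) with the promoter of 1000 bp upstream to 200 bp downstream, 28 (45.2% beside 33.2%) by any overlap of the peak, and 5 (8.06% beside 13.0%) in the stronger 15000 peaks. By any overlap the interval of 33.4% to 57.5% no longer spanned the background. From 1 replicate alone it was 13 to 18. The count of 5 genes in both replicates became 13 (21.0% beside 22.3%) with the wider promoter, 12 (19.4% beside 18.7%) by any overlap and 1 (1.61% beside 5.50%), ceh-38, in the stronger 15000 peaks of each list. The 1 IDR-thresholded gene, ceh-38, became 0 in the stronger 200 peaks, and from the 400 strongest peaks of 1 replicate alone it was 0 without replicate 4 and 1 without replicate 3. The count of 33 genes with a summit inside became 20 (32.3% beside 31.5%) in the stronger 15000 peaks and was 28 to 32 from 1 replicate alone. The median rank of 17533 was 12531 to 14197 from 1 replicate alone, on lists of their own, and 16990 to 18192 under the other alternatives. No paired analysis was possible because there is 1 group of 2 replicates and no result comes from a test. Depth is unknown, and with q-values of 0.489 to 0.800 at all promoter peaks but that of ceh-38, the presence of a weak peak in 1 list and not in another was given as a count only.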

Other observations

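Homeobox genes of other names, 38 in the list used here, gave a description of the rest of the family. A pooled promoter summit was found in 20 of them, 52.6%, beside 29.0% of the ceh genes and 23.0% of all protein-coding genes. The share was lower in each replicate. Replicate 3 gave 14, 36.8% beside 22.8% of all protein-coding genes, and replicate 4 gave 13, 34.2% beside 23.7%. None was IDR-thresholded, beside 0.951% of all protein-coding genes. They are longer, with a median of 4680 bp beside 2644.5 bp for ceh genes, and have more transcript starts, 2.61 beside 1.50 on average, and the part of these in the share was not tested. The strongest promoter peaks were at psa-3, a Meis-related TALE gene, with a pooled signal value of 89.6 at rank 810, at unc-62, the homothorax-type partner of Hox proteins, with 77.1 at rank 1636, and at the Hox gene lin-39 with 73.8 at rank 1974. All 3 had a promoter summit in both replicates. Among the TALE genes named ceh, ceh-20, ceh-40 and ceh-60, no promoter summit was found in any list. The same held for 63.4% of all protein-coding genes, and these genes are too few for a comparison within the class.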
